A study of Mus musculus with 26 samples.

Results

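The genes described here are 10 members of the Nodal, activin and BMP signalling system: the ligands Nodal, Gdf3 and Bmp4, the co-receptor Tdgf1 (also called Cripto), the receptors Acvr1b and Acvr2b, the signal transducers Smad2 and Smad3, and the inhibitors Lefty1 and Lefty2. They were chosen by name, and all 10 were found among the 55254 gene symbols of the expression table. Of the 10, 7 reached 1 TPM (a share of the library's transcripts, corrected for transcript length and scaled to a fixed total) in at least 5 libraries and were tested, together with 12034 genes in all. Nodal, Lefty1 and Lefty2 did not reach that level and are given as values only.

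The 26 libraries each came from the inner cell mass (ICM) of 1 CD-1 mouse embryo. Morulae (stage E2.75) of 5 litters were mixed and kept in KSOM medium for 24 hours. There were 6 ICMs with 10 µM LY (LY294002, a PI3K inhibitor) plus 1 µg/ml FGF4 with heparin (LY+FGF4), 8 ICMs with FGF4 and heparin alone (FGF4), 7 ICMs with LY alone (LY) and 5 ICMs with the DMSO vehicle (DMSO). All embryos lost the zona pellucida and their outer cells by immunosurgery, and the labels name no transgene or deletion. PolyA RNA was sequenced with the FLASH-seq protocol, which was made for single cells and reads full-length transcripts.

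Nodal and its relative Gdf3 are secreted ligands of the TGF-beta family. They bind a complex of a type I receptor such as Acvr1b and a type II receptor such as Acvr2b, and need the membrane-anchored co-receptor Tdgf1. The receptors phosphorylate Smad2 and Smad3, which enter the nucleus with Smad4 and act with cofactors such as Foxh1. Lefty1 and Lefty2 are induced by the pathway in many settings and block it. Bmp4 acts through other type I receptors and Smad1, Smad5 and Smad9. In the mouse blastocyst Gdf3, Tdgf1, Bmp4 and Nanog are used as markers of the epiblast, the ICM lineage that forms the fetus, while Gata6, Gata4 and Sox17 mark the primitive endoderm.

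The promoter of Tdgf1 is shown because Tdgf1 is one of the genes that changed, that of Bmp4 because its transcript ranged widely between ICMs of a group, and that of Nodal because its transcript was almost never listed. Each runs 5′ to 3′ from 250 bases before to 50 bases after the RefSeq start on GRCm38.p6. Tdgf1 lies on the minus strand (chr9:110946109-110946408), Bmp4 on the minus strand (chr14:46390620-46390919) and Nodal on the plus strand (chr10:61417722-61418021). Capitals mark matches to GGGCGTGG, a motif bound by KLF and SP factors.
Tdgf1: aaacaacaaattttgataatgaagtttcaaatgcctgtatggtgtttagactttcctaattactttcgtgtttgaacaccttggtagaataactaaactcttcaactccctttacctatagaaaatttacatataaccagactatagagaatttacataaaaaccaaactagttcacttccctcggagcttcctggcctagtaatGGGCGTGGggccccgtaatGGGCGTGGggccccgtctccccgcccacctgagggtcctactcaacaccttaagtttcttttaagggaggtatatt
Bmp4: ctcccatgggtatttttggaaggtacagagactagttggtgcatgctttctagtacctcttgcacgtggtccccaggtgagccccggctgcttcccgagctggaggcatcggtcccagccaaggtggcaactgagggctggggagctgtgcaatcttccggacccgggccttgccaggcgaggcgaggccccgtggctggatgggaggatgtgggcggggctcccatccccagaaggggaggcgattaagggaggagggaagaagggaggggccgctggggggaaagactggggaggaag
Nodal: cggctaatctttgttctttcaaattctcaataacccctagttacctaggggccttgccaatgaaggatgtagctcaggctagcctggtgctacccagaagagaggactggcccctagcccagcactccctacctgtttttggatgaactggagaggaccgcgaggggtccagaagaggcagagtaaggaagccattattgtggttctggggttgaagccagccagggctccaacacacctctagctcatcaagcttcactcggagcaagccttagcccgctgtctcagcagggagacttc
In Tdgf1 the motif occurs 2 times, once in each copy of a 21-base stretch, gtaatgggcgtggggccccgt, whose overlapping copies begin 50 and 31 bases before the start. This motif was chosen after the Tdgf1 sequence had been read, and 5.33% of the 32851 mouse promoters of the same length hold it on either strand. The octamer ATGCAAAT bound by Oct4 (1.74% of promoters), AATCCACA bound by Foxh1 (0.855%), the palindrome GTCTAGAC bound by SMADs (0.213%) and TTGTTTAC bound by FOXO factors (1.23%) had no match on either strand in the promoters of Tdgf1, Bmp4, Nodal, Acvr1b, Acvr2b or Smad3. The Tdgf1 window had 41.7% G and C and 7 CpG dinucleotides, the Bmp4 window 64.0% and 12, and the Nodal window 54.0% and 5. The windows of Acvr1b (79.7%, 51 CpG) and Acvr2b (73.3%, 27 CpG) were richer in both.

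The libraries differed in how many genes they listed. Genes at 1 TPM or more numbered 7486 to 9534 in LY+FGF4, 8315 to 10871 in FGF4, 9860 to 10215 in LY and 10212 to 11367 in DMSO. The 6 libraries under 9000 genes were LY+FGF4 replicates 2, 3, 5 and 8 and FGF4 replicates 2 and 3. Of 18 genes that all cells use, 1 (Polr2a) was at 0 in 1 library, so a member at 0 is described as listed at 0. Many of the 18 lay far above the members, such as Eef1a1 at 971 to 2591 TPM. Their count therefore does not show how often genes at the levels of the members are listed at 0. The number of reads is not recoverable from TPM, and the depth is unknown. The median log2 fold change of all tested genes was -0.37 in LY+FGF4 against DMSO and -0.03 after quantile normalization.

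Among the members, Gdf3 and Tdgf1 were the genes that changed past the threshold, and they were lower in LY+FGF4. In LY+FGF4 against DMSO, 2 of the 7 tested members fell and 0 rose, where 9.5% of all tested genes were called in either direction, 2.19% higher and 7.3% lower (limma, Benjamini-Hochberg adjusted p under 0.05 over all tested genes). The same 2 genes fell in LY+FGF4 against LY, where 6.3% of all tested genes were called, 1.79% higher and 4.5% lower. In LY+FGF4 against FGF4, where 3.55% of all genes were called (0.723% higher and 2.83% lower), 0 members were called by limma and 2 had an unadjusted p under 0.05, which 18.8% of all tested genes had. FGF4 against DMSO likewise had 0 called by limma where 2.44% of all genes were called (0.981% higher and 1.46% lower), and 2 with an unadjusted p under 0.05, which 15.5% of all tested genes had. LY against DMSO, where 0.374% of all genes were called (0.0748% higher and 0.299% lower), had 0 called by limma and 0 with an unadjusted p under 0.05 (8.59% of all tested genes). The interaction subtracts the LY difference seen without FGF4 from that seen with it. Both counts were again 0 there, and 0.0499% of all genes were called (0.0249% higher and 0.0249% lower), with 6.03% at an unadjusted p under 0.05. In FGF4 against LY, a contrast added after the data were seen, 0 members were called by limma and 2 (Gdf3 and Acvr1b) had an unadjusted p under 0.05, where 8.55% of all genes were called (4.23% higher and 4.32% lower) and 21.7% had such a p. Several of these comparisons share the DMSO, FGF4, LY or LY+FGF4 libraries, so they are not independent of each other.

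**Figure D1:**
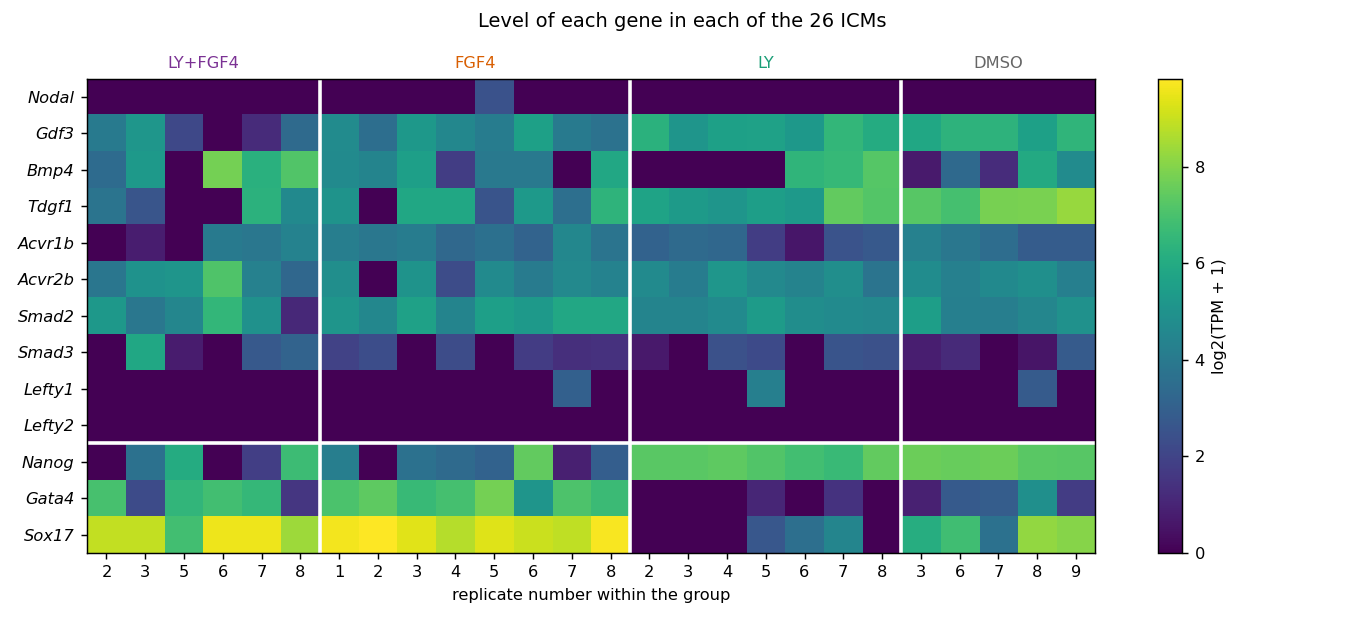
Level of the 10 genes and, below the white line, of the lineage markers Nanog, Gata4 and Sox17, as log2(TPM + 1), in each of the 26 single ICMs. Columns are libraries, grouped as LY+FGF4, FGF4, LY and DMSO and marked with replicate numbers. Nodal, Lefty1 and Lefty2 are at 0 in nearly all columns, Smad2 is above 0 in all 26, and Gdf3 and Tdgf1 are lowest in LY+FGF4.

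Nodal, the founding ligand of the pathway, lies at chr10:61417972-61425338 on the plus strand of GRCm38. It was listed at 0 in 25 of 26 libraries, and FGF4 replicate 5 had 4.51 TPM. Its own transcript therefore gave no comparison between conditions.

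Gdf3 (chr6:122605403-122610087, minus strand), a ligand that uses the same receptors and co-receptor as Nodal, was listed above 0 in 25 of 26 ICMs. In LY+FGF4 its values were 0, 1.3, 3.42, 9.65, 15.1 and 35.2 TPM (median 6.54). In FGF4 they ran between 10.7 and 47.4 TPM (median 19.6, 8 ICMs), in LY between 34.0 and 90.3 TPM (median 48.8, 7 ICMs), and in DMSO they were 46.9, 57.1, 80.2, 81.2 and 86.0 TPM. All 6 LY+FGF4 ICMs lay below the lowest DMSO ICM, and 5 of 6 lay below the lowest LY ICM. The exception was LY+FGF4 replicate 3, which overlapped the LY range. For no comparison here is the share of all tested genes whose groups do not overlap given. A lack of overlap, for Gdf3 or the genes below, is therefore a description only.

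Relative to DMSO, Gdf3 in LY+FGF4 fell by 3.46 on the log2(TPM + 1) scale (SE 0.63, 95% interval -4.74 to -2.18, limma adjusted p = 0.000991). Relative to LY it fell by 3.12 (SE 0.58, interval -4.30 to -1.94, limma adjusted p = 0.00178). Both calls were kept in all alternatives run, which were 22 for the first and 24 for the second. Without the 6 libraries under 9000 genes, which leaves LY+FGF4 replicates 6 and 7, the differences were -5.52 against DMSO and -5.18 against LY. With the number of listed genes as a covariate they were -4.14 (limma adjusted p = 0.0325) and -3.58 (limma adjusted p = 0.0169).

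The other Gdf3 contrasts did not pass the threshold. FGF4 against DMSO had a log2 fold change of -1.68 (SE 0.59, limma adjusted p = 0.136), and 7 of 8 FGF4 ICMs lay below the lowest DMSO ICM. LY+FGF4 against FGF4 had -1.78 (SE 0.56, limma adjusted p = 0.0701), with 4 of 6 below the lowest FGF4 ICM, and it passed without LY+FGF4 replicate 2 (limma adjusted p = 0.0494) or 3 (limma adjusted p = 0.015). Without the libraries under 9000 genes both passed, at -1.66 (limma adjusted p = 0.0136) and -3.86 (limma adjusted p = 0.000233). LY against DMSO had -0.34 (interval -1.58 to 0.90, limma adjusted p = 0.972). The interaction was -1.45 (interval -3.13 to 0.24, limma adjusted p = 0.866), and -3.52 (limma adjusted p = 0.0225) without the libraries under 9000 genes. The medians run upward as LY+FGF4, FGF4, LY and DMSO, and no 2 neighbours in that order differed past the threshold (FGF4 against LY, -1.34, limma adjusted p = 0.128).

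Bmp4 (chr14:46383520-46390669, minus strand), the BMP ligand that signals through Smad1 and Smad5, varied widely within groups. In LY+FGF4 it had 0, 9.71, 37.4, 75.2, 143 and 218 TPM. The 8 FGF4 ICMs ran between 0 and 58.9 TPM (median 17.5). In LY, replicates 2, 3, 4 and 5 were listed at 0 while replicates 6, 7 and 8 had 85.4, 94.0 and 148 TPM. DMSO had 0.64, 1.4, 9.24, 26.0 and 62.0 TPM. The LY ICMs thus lay in 2 sets, 4 below all DMSO ICMs and 3 above them.

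No Bmp4 contrast passed the threshold. The highest fold was in LY+FGF4 against LY, at 2.09 on the log2 scale with an interval of -0.75 to 4.93 (limma adjusted p = 0.399). LY+FGF4 against DMSO had 1.77 (interval -1.33 to 4.86, limma adjusted p = 0.493), FGF4 against DMSO 0.57 (interval -2.34 to 3.48) and LY against DMSO -0.32 (interval -3.32 to 2.67). These intervals are wide enough to hold changes of several log2 units in either direction for FGF4 and for LY. Bmp4 overlaps the antisense gene Gm15222, which reached at most 1.69 TPM. Whether counting used strand is not given in the sources used here.

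Tdgf1 (chr9:110939603-110946158, minus strand), the co-receptor through which Nodal and Gdf3 reach Acvr1b, had the highest single values of the 10 genes. In LY+FGF4 it had 0, 0, 5.07, 12.9, 24.3 and 78.5 TPM. In FGF4 the 8 values lay between 0 and 83.3 TPM (median 35.3). In LY 5 ICMs lay between 34.2 and 51.5 TPM, and replicates 7 and 8 had 176 and 148 TPM. DMSO had 120, 153, 225, 229 and 317 TPM. All 6 LY+FGF4 and all 8 FGF4 ICMs lay below every DMSO ICM, and 5 of 7 LY ICMs did so.

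Relative to DMSO, Tdgf1 in LY+FGF4 fell by 4.74 on the log2(TPM + 1) scale (SE 1.00, interval -6.79 to -2.69, limma adjusted p = 0.00374). The call was kept in 21 of 22 alternatives. It was lost with the number of listed genes as a covariate, at -3.19 (limma adjusted p = 0.323). Relative to LY, it fell by 3.06 (SE 0.92, interval -4.94 to -1.17, limma adjusted p = 0.0441), but this call was kept in 4 of 24 alternatives. Leaving out any 1 LY library, or LY+FGF4 replicate 2, 3, 5 or 6, ended it. Without the libraries under 9000 genes it was -2.79 (limma adjusted p = 0.14), and over all alternatives the adjusted p ran between 0.0113 and 0.464.

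FGF4 against DMSO had a Tdgf1 log2 fold change of -3.31 (SE 0.94, interval -5.24 to -1.38, limma adjusted p = 0.0544). It missed the threshold although the groups did not overlap, and it passed in 6 of 24 alternatives, among them quantile normalization (-3.41, limma adjusted p = 0.0365) and leaving out FGF4 replicate 3, 6 or 8. LY against DMSO had -1.68 (interval -3.66 to 0.30, limma adjusted p = 0.713) and LY+FGF4 against FGF4 -1.43 (SE 0.89, limma adjusted p = 0.402). The interaction was 0.25 (interval -2.44 to 2.95, limma adjusted p = 0.994). The medians of Tdgf1 run upward as LY+FGF4, FGF4, LY and DMSO, the order seen for Gdf3. No 2 neighbours in it differed past the threshold (FGF4 against LY, -1.63, limma adjusted p = 0.272).

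The pseudogene Tdgf1-ps1 shares 236 of the 2665 stretches of 50 bases in Tdgf1 transcripts (8.86%), so reads from those stretches could be split between them. It was listed at 0 in 5 of 6 LY+FGF4, 7 of 8 FGF4 and 4 of 7 LY ICMs, and had 7.95 to 26.5 TPM in the 5 DMSO ICMs. Tdgf1 had 120 TPM or more in the same DMSO ICMs.

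**Figure D2:**
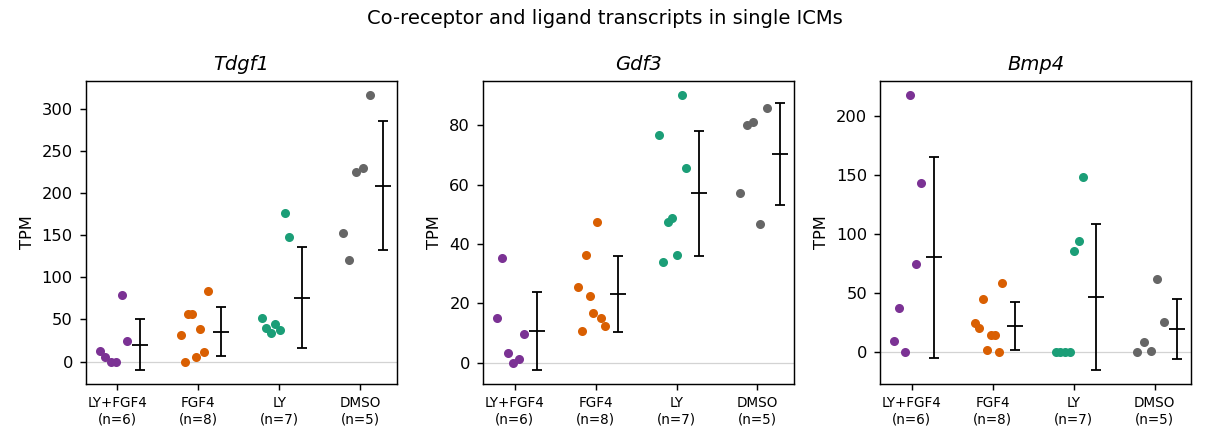
TPM of Tdgf1, Gdf3 and Bmp4 in single ICMs, 1 point per library, with bars for the mean and SD of LY+FGF4, FGF4, LY and DMSO. Gdf3 and Tdgf1 of all 6 LY+FGF4 ICMs lie below the lowest DMSO ICM (46.9 and 120 TPM), while Bmp4 groups overlap.

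Acvr1b (chr15:101174067-101213684, plus strand), the type I receptor also called ALK4, was listed above 0 in 24 of 26 ICMs. In LY+FGF4, replicates 6, 7 and 8 had 15.3, 14 and 19.6 TPM, while replicates 2, 3 and 5 had 0, 0.72 and 0 TPM. These 3 low libraries are among those under 9000 genes, and so is replicate 8 at 19.6 TPM. FGF4 replicates 2 and 3, also under 9000 genes, had 13.9 and 16.7 TPM. In FGF4 Acvr1b ran between 7.75 and 22.7 TPM (mean 13.9 ± 4.88, SD, n = 8), in LY between 0.5 and 9.59 TPM (5.62 ± 3.33, SD, n = 7) and in DMSO between 6.23 and 18.8 TPM (11.1 ± 5.35, SD, n = 5). The groups overlapped in all comparisons.

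For Acvr1b, LY+FGF4 against FGF4 had a log2 fold change of -1.65 (SE 0.67, interval -3.02 to -0.29, limma adjusted p = 0.167), and 0.20 without the libraries under 9000 genes. LY against DMSO did not pass (limma adjusted p = 0.824), nor did LY+FGF4 against DMSO at -1.31 (SE 0.75, limma adjusted p = 0.283) or FGF4 against DMSO at 0.35 (SE 0.70, limma adjusted p = 0.865).

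Acvr2b (chr9:119402118-119434995, plus strand), a type II receptor for Nodal and activins, had similar medians in all 4 groups. They were 25.2 TPM in LY+FGF4 (8.86 to 139), 21.7 TPM in FGF4 (0 to 32.1), 24.0 TPM in LY (12.6 to 35.3) and 24.1 TPM in DMSO (17.7 to 28.6). LY+FGF4 replicate 6 had the value of 139 TPM, and the next in its group had 34.2 TPM. Folds lay between -0.82 in FGF4 against DMSO (SE 0.67, limma adjusted p = 0.609) and 1.05 in LY+FGF4 against FGF4 (SE 0.64, limma adjusted p = 0.387). For LY against DMSO the interval of -1.46 to 1.37 bounds the difference.

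Smad2 (chr18:76241580-76310963, plus strand), the main effector of Nodal in the early embryo, was the 1 member above 0 in all 26 ICMs. It had 1.22, 14.1, 21.95, 30.8, 37.2 and 90.8 TPM in LY+FGF4. It ran between 20.9 and 59.1 TPM in FGF4 (41.2 ± 14.9, SD, n = 8), 20.8 and 41.6 TPM in LY (26.4 ± 7.13, SD, n = 7) and 17.5 and 44.4 TPM in DMSO (26.4 ± 11.3, SD, n = 5). LY+FGF4 thus held both the lowest and the highest Smad2 value of the 26. No contrast passed: LY+FGF4 against FGF4 had -0.92 (SE 0.52, limma adjusted p = 0.352), FGF4 against DMSO 0.62 (SE 0.55, limma adjusted p = 0.644) and LY against DMSO 0.06 (interval -1.10 to 1.21).

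Smad3 (chr9:63646767-63757994, minus strand), which binds DNA directly, was listed above 0 in 19 of 26 ICMs and at low levels. Its medians were 3.24 TPM in LY+FGF4, 2.02 TPM in FGF4, 3.57 TPM in LY and 0.77 TPM in DMSO. LY+FGF4 replicate 3 had 56.5 TPM and the next library in its group 7.83 TPM. LY+FGF4 against DMSO did not pass (SE of the log2 difference 0.85, limma adjusted p = 0.488), and no other contrast did. On the TPM scale, which is per length, Smad2 exceeded Smad3 at the median of every group.

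**Figure D3:**
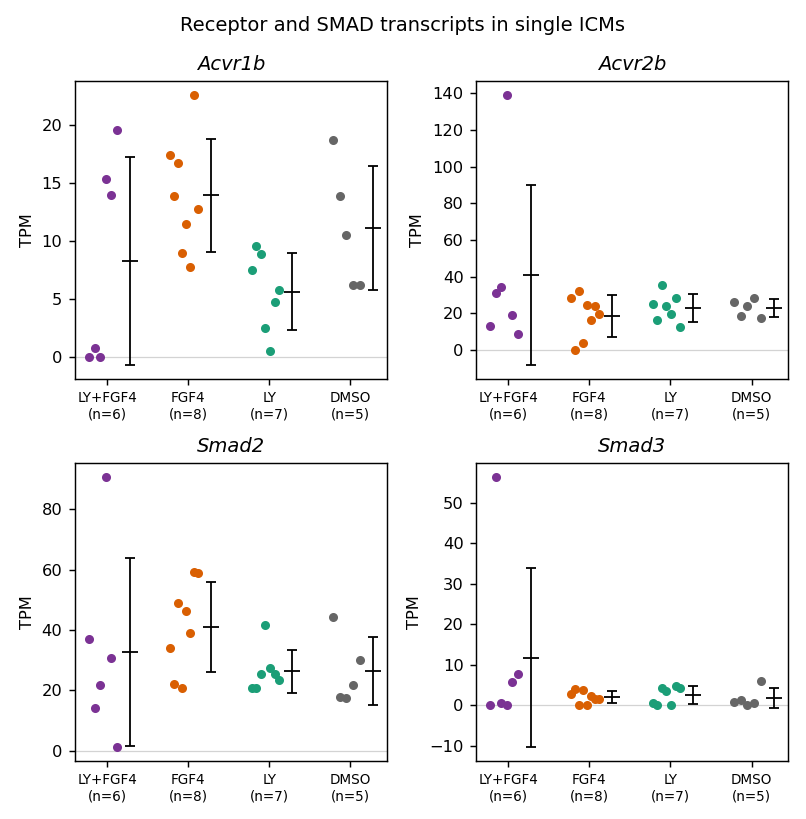
TPM of Acvr1b, Acvr2b, Smad2 and Smad3 in single ICMs, 1 point per library, with bars for the mean and SD of LY+FGF4 (n = 6), FGF4 (n = 8), LY (n = 7) and DMSO (n = 5). The groups overlap for all 4 genes. LY+FGF4 replicate 6 had both 139 TPM (Acvr2b) and 90.8 TPM (Smad2), and replicate 3 had 56.5 TPM (Smad3). These values widen the spread of LY+FGF4.

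Lefty1 (chr1:180935022-180938400) and Lefty2 (chr1:180893108-180899103), both on the plus strand, encode secreted Nodal inhibitors. Lefty1 was above 0 in 3 ICMs from 3 groups, with 7.05 TPM in FGF4 replicate 7, 17.9 TPM in LY replicate 5 and 5.99 TPM in DMSO replicate 8. Lefty2 was listed at 0 in all 26. The transcripts of these neighbours share 306 stretches of 50 bases (17.9% of those of one and 11.95% of those of the other), so the assignment of reads between them is uncertain.

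**Figure D4:**
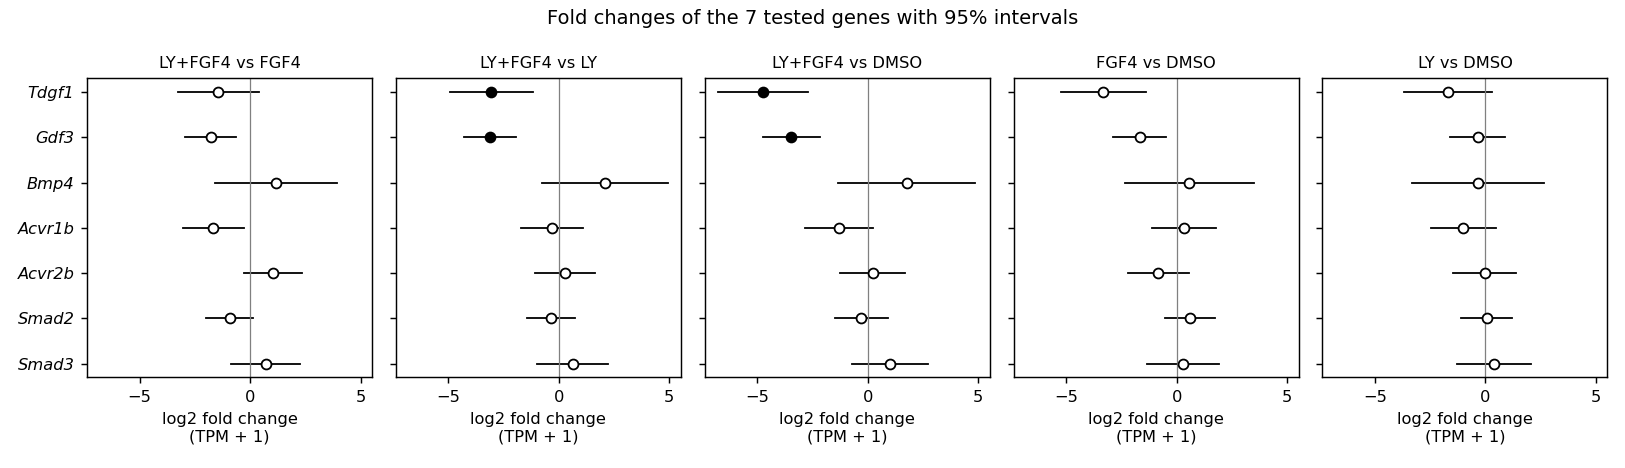
Log2 fold changes of the 7 tested members on the log2(TPM + 1) scale with 95% intervals from limma, for each comparison. Filled calls are those of Gdf3 and Tdgf1 in LY+FGF4 against LY and against DMSO, and the Bmp4 intervals are the widest.

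The wider pathway was read from 77 further ligand, processing, receptor, SMAD, inhibitor and target genes, of which 76 were in the table and 43 were tested. Of the 43, FGF4 against DMSO had 1 higher and 2 lower (2.44% of all tested genes called), and LY+FGF4 against FGF4 had 1 lower (3.55%). LY+FGF4 against LY had 3 lower (6.3%) and LY+FGF4 against DMSO had 2 lower (9.5%). LY against DMSO and the interaction had 0 called by limma. At an unadjusted p under 0.05 they had 2 of 43 (8.59% of all tested genes) and 5 of 43 (6.03% of all tested genes). The median log2 fold change of the 43 was -0.18 in LY+FGF4 against DMSO, beside -0.37 for all tested genes. All 6 tested ligands, 3 tested proprotein convertases and 5 tested receptors had 0 calls by limma in these 5 comparisons and in the interaction. At an unadjusted p under 0.05 were at most 1 of the 6 ligands and 1 of the 5 receptors in a comparison, and 2 of the 3 convertases in LY+FGF4 against FGF4, where 18.8% of all tested genes were. The pathway genes were part of the FGF4 against LY fit, but their results in it are not given here. The activin subunit gene Inhba and the inhibitor Fst were listed at 0 in all 26 ICMs.

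Foxh1, the DNA-binding cofactor of Smad2, fell in LY+FGF4 in all 3 comparisons. It was listed at 0 in LY+FGF4 replicates 2, 3 and 5, and had 4.34, 39.7 and 18.02 TPM in replicates 6, 7 and 8. FGF4 ICMs had 10.6 to 77.7 TPM, LY ICMs 10.0 to 40.8 TPM and DMSO ICMs 31.1 to 70.4 TPM. In LY+FGF4 4 of 6 ICMs lay below every FGF4 and every LY ICM, and 5 of 6 below every DMSO ICM. The log2 fold changes were -3.40 against FGF4 (limma adjusted p = 0.00464), -2.81 against LY (limma adjusted p = 0.0148) and -3.40 against DMSO (limma adjusted p = 0.0054). The 3 libraries at 0 are among those under 9000 genes, as are LY+FGF4 replicate 8 and FGF4 replicates 2 and 3 (10.6 and 60.8 TPM). Without the 6 such libraries the differences of -1.74, -0.93 and -1.52 did not pass (limma adjusted p = 0.163, 0.405 and 0.152).

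Of the inhibitors, Smad7, an intracellular SMAD that blocks the receptors, rose in FGF4 against DMSO by 3.32 on the log2 scale (SE 0.77, limma adjusted p = 0.0168). FGF4 ICMs had 4.05 to 55.6 TPM, and all 8 lay above the DMSO ICMs at 0 to 1.54 TPM. Smad7 had 0 to 11.2 TPM in LY and 0 to 10.4 TPM in LY+FGF4. Fstl3, a secreted binder of activins, had 0 to 9.05 TPM in FGF4 against 14.7 to 33.0 TPM in DMSO and fell by 2.94 (limma adjusted p = 0.0302), with no overlap. In LY+FGF4 it was listed at 0 in 4 of 6 ICMs and reached 20.6 TPM in replicate 5, with log2 fold changes of -3.87 against LY (limma adjusted p = 0.00202) and -3.38 against DMSO (limma adjusted p = 0.00783). Bambi, a pseudoreceptor that dampens TGF-beta and BMP signals, had 0 to 71.3 TPM in LY+FGF4 against 50.8 to 109 TPM in LY and fell by 3.33 (limma adjusted p = 0.00532). It was low in FGF4 alone too, at 3.02 to 27.4 TPM, and had 9.01 to 86.5 TPM in DMSO.

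Id3, a target of BMP signals through Smad1 and Smad5, had 0 to 59.3 TPM in FGF4 against 56.7 to 235 TPM in DMSO. It fell by 2.747 on the log2 scale (limma adjusted p = 0.0316), with 7 of 8 FGF4 ICMs below every DMSO ICM. With the number of listed genes as a covariate, the calls of Foxh1, Smad7, Fstl3, Bambi and Id3 all missed the threshold (limma adjusted p between 0.0655 and 0.561). The log2 fold changes were then 2.94 for Smad7, -2.66 for Fstl3 and -2.13 for Id3 in FGF4 against DMSO, and -3.31 for Fstl3 and -2.84 for Bambi in LY+FGF4 against LY. Fstl3 had -2.54 in LY+FGF4 against DMSO, and Foxh1 had -2.10, -1.50 and -1.47 against FGF4, LY and DMSO. In FGF4 against DMSO the Fstl3 call was kept in 12 of 24 alternatives and was lost without any 1 DMSO library or FGF4 replicate 2, 3 or 4. The Id3 call was kept in 14 of 24 and was lost without DMSO replicate 6, 7, 8 or 9 or FGF4 replicate 7. The Smad7 call was kept in 19 of 24 and was lost without DMSO replicate 7 (3.14, limma adjusted p = 0.0644).

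**Figure D5:**
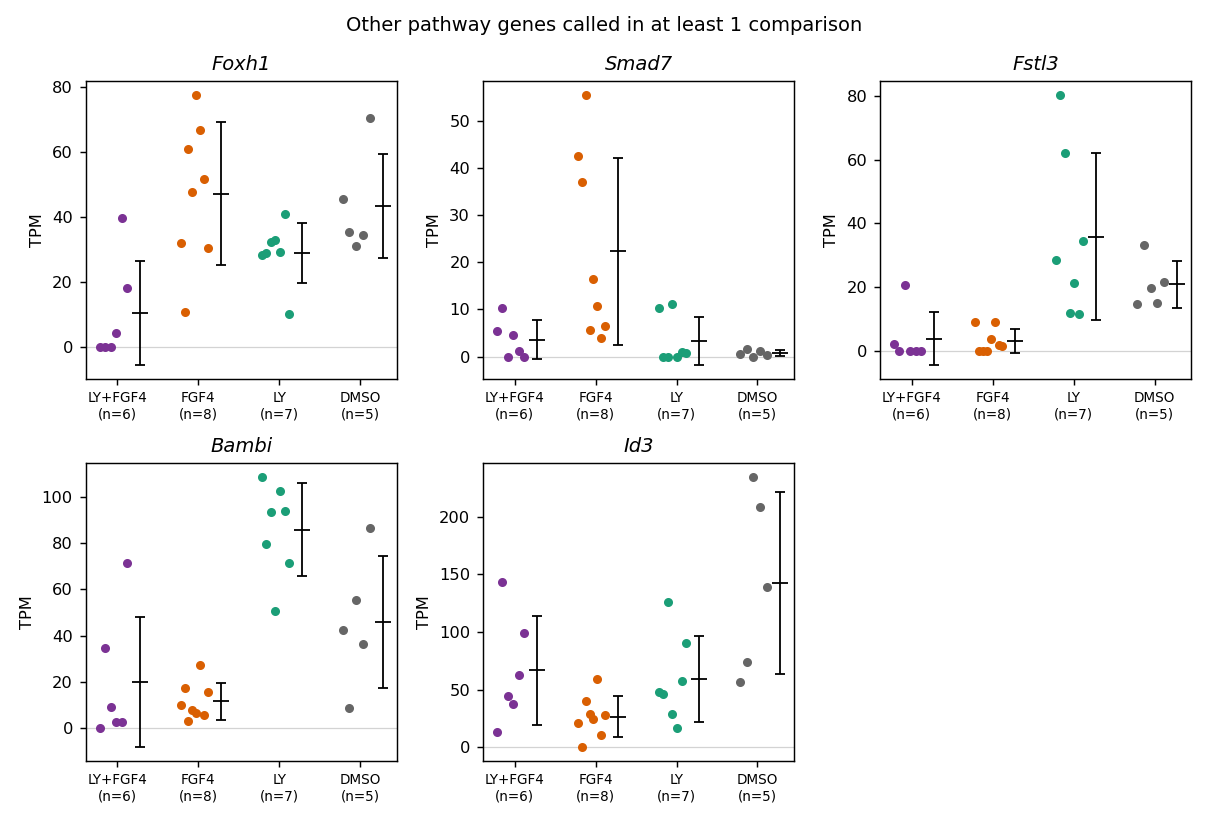
TPM of the other pathway genes called in at least 1 comparison (Foxh1, Smad7, Fstl3, Bambi and Id3), 1 point per ICM, with bars for the mean and SD of LY+FGF4, FGF4, LY and DMSO. All 8 FGF4 ICMs lie above the DMSO ICMs for Smad7 and below them for Fstl3.

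Markers of the ICM lineages differed between the groups too. The summed TPM of 7 epiblast markers other than the members was 232 to 709 (median 417) in LY+FGF4, 168 to 584 (300) in FGF4, 716 to 974 (819) in LY and 806 to 1064 (948) in DMSO. Of these 7, 4 fell in LY+FGF4 against DMSO, where 7.3% of all tested genes were called lower. In LY+FGF4 against LY 3 fell (4.5% of all lower), and in FGF4 against DMSO 5 fell (1.46% of all lower). In LY against DMSO 0 were called by limma (0.374% of all tested genes called). There 0 had an unadjusted p under 0.05, which 8.59% of all tested genes had. In LY+FGF4 against FGF4 the median log2 fold change of the 7 was 0.39, beside -0.24 for all tested genes. Of the 7, 0 were called by limma or had an unadjusted p under 0.05 there, where 3.55% and 18.8% of all tested genes did. Among the members used as epiblast markers, Gdf3 and Tdgf1 were lower in that comparison (-1.78 and -1.43) and Bmp4 was higher. None of these members passed the threshold, and whether they differ from the 7 was not tested. Nanog had 0 to 105 TPM in LY+FGF4 (median 7.12, 2 of 6 ICMs at 0), 0 to 176 TPM in FGF4 (median 8.49, 1 of 8 at 0), 101 to 177 TPM in LY and 152 to 198 TPM in DMSO. Sox2 overlapped between all groups, at medians of 20.5, 19.3, 33.7 and 21.98 TPM in LY+FGF4, FGF4, LY and DMSO. In whole ICMs, fewer cells of a type and less RNA per cell cannot be told apart.

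The summed TPM of 16 primitive endoderm markers was 952 to 4002 in LY+FGF4, 1800 to 5812 in FGF4, 308 to 541 in LY and 877 to 1878 in DMSO. Of the 15 tested, 3 rose and 1 fell in LY+FGF4 against DMSO (9.5% of all tested genes called), 7 rose in LY+FGF4 against LY (6.3%), 3 fell in LY+FGF4 against FGF4 (3.55%), 7 rose in FGF4 against DMSO (2.44%) and 3 fell in LY against DMSO (0.374%). Gata4 had medians of 90.0, 128, 0 and 5.87 TPM in LY+FGF4, FGF4, LY and DMSO, Sox17 of 487, 663, 0 and 110 TPM, and Gata6 of 393, 311, 164 and 233 TPM. The sum of 15 trophectoderm markers was 808 to 2410 in LY+FGF4, 576 to 1834 in FGF4, 1927 to 2750 in LY and 1356 to 2507 in DMSO. Sfn, Cldn4 and Krt8 supplied most of this sum, so it does not describe the 15 as a class. Sfn alone had 309 to 976 TPM in LY+FGF4, 70.6 to 503 in FGF4, 831 to 1761 in LY and 547 to 1015 in DMSO. Not all of the 15 followed the sum. Fgfr2, for example, had medians of 119, 97.7, 2.79 and 21.6 TPM in LY+FGF4, FGF4, LY and DMSO. Of the 12 trophectoderm markers tested, 1 rose and 2 fell in LY+FGF4 against DMSO (9.5% of all tested genes called). In LY+FGF4 against LY (6.3%) and in FGF4 against DMSO (2.44%) 1 rose and 3 fell. Cdx2 had medians of 0, 5.59, 7.26 and 41.6 TPM in LY+FGF4, FGF4, LY and DMSO. It was listed at 0 in 4 of 6, 2 of 8, 0 of 7 and 0 of 5 of these ICMs. The sum of 14 oocyte-derived transcripts was 795 to 1303 in LY+FGF4, 878 to 1953 in FGF4, 1659 to 3305 in LY and 2322 to 3450 in DMSO. Khdc3 supplied most of this sum, so it does not describe the 14 as a class. Khdc3 alone had 780 to 1291 TPM in LY+FGF4, 876 to 1942 in FGF4, 1629 to 3245 in LY and 2268 to 3436 in DMSO. The part of the epiblast, primitive endoderm and oocyte-derived transcripts in the changes of Gdf3 and Tdgf1 was not tested. With the trophectoderm score as a covariate, Gdf3 in LY+FGF4 against DMSO was -2.99 (limma adjusted p = 0.00664) and Tdgf1 -4.65 (limma adjusted p = 0.0131).

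Across the 26 ICMs, which share their groups and differ in the number of listed genes, the tested genes most like Gdf3 in log2(TPM + 1) were Snx17 (r = 0.86, and 0.78 for deviations from the group means), Sars2 (0.80 and 0.60) and Eif2d (0.79 and 0.43). Those most like Tdgf1 were Ddx11 (0.78 and 0.69), Sf3b5 (0.78 and 0.50) and Sars2 (0.78 and 0.64). Those most like Bmp4 were Mterf3 (0.70), Soat1 (0.63) and Msl1 (0.60). For Acvr1b they were Slc35b3 (0.89), Dctd (0.82) and Itm2c (0.81), and for Acvr2b Ppt1 (0.82), Tysnd1 (0.79) and Ndufaf6 (0.77). For Smad2 they were Zfp414 (0.81), Pak2 (0.79) and Rcn2 (0.78), and for Smad3 Ep400 (0.70), Tcf25 (0.70) and Ndufs3 (0.66). None of these 3 genes per member was among the top 3 without the 6 libraries under 9000 genes. Between the members themselves, Gdf3 and Tdgf1 had r = 0.68, and 0.35 for deviations from the group means. Acvr2b and Smad2 had 0.37 and 0.57, and Smad2 and Smad3 -0.40 and -0.39. LY+FGF4 replicate 6 held the highest value of both Acvr2b and Smad2.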

How the data were processed

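PolyA RNA of 26 single ICMs was measured by FLASH-seq. The deposited table holds TPM per gene symbol, computed by the authors, and each library sums to about 1000000. Reads were trimmed and de-duplicated per the labels, and the submitters' processing notes name STAR, RSEM and mm10. For versions, annotation and strandedness, nothing is given in the sources used here. Since TPM keeps no read number, no counting interval is given, and a count test was not used.

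Groups came from the treatment labels. Each library is a separate embryo, and the labels name 1 date and no batch. Genes at 1 TPM or more in at least 5 libraries (12034) were tested on log2(TPM + 1) with limma 3.58.1 (R 4.3.3), a scale that understates the change of low genes. All 26 libraries entered 1 fit with a mean per group, trended and robust empirical Bayes and two-sided tests, and p-values were Benjamini-Hochberg adjusted over all tested genes at 0.05. The procedure was tested on simulated data. Summaries used Python 3.11.15 and pandas 2.3.3.

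The members and lists were chosen with earlier results of these data known. The text names all 10 members, pathway genes called in a comparison, 6 lineage markers (Nanog, Sox2, Gata4, Sox17, Gata6, Cdx2), and the 3 genes of highest Pearson r with each tested member among tested genes with a mean of at least 5 TPM, leaving out predicted, Y-linked and Xist symbols. Inhba, Fst and Tdgf1-ps1 fall outside this rule and were chosen with their values known. Alternatives were other pseudocounts (0.1 and 0.5) and filters, quantile normalization, library weights, covariates for the number of listed genes or a trophectoderm score, the compared groups alone, libraries under 9000 genes or single libraries left out, and a replicate block. The FGF4 against LY contrast and the pathway genes' alternatives were added after the data were seen. Replicate numbers repeat between groups but do not pair libraries. Gene coordinates come from GENCODE M21 on GRCm38 (mm10), which matched 53255 symbols, and promoters from RefSeq on GRCm38.p6, in which 9 of the 10 genes were looked up (not Smad2) and 6 found.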

Additional observations from a re-analysis of the deposited data

Results flagged for a closer look

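Of 52 sets of 1 gene in 1 group, 11 held a library far from the rest, by the gap to its nearest neighbour relative to the range of the group. Chance gives about 1 in 20 for normally distributed values, which TPM with many zeros are not, so the number of such sets is not read against it. Of the members, Tdgf1 had 78.47 TPM in LY+FGF4 replicate 7, where the next library had 24.3 TPM. Acvr2b had 139.22 TPM in LY+FGF4 replicate 6, next to 34.22 TPM. Smad3 had 56.49 TPM in LY+FGF4 replicate 3, next to 7.83 TPM. Smad2 had 41.61 TPM in LY replicate 5, next to 27.49 TPM. In DMSO replicate 9 Smad3 had 6.11 TPM, next to 1.28 TPM.

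Where all other libraries of a group were at 0, 1 value above 0 meets the criterion by construction. Such single libraries had values for Nodal (4.51 TPM in FGF4 replicate 5) and Lefty1 (7.05 TPM in FGF4 replicate 7, 17.9 TPM in LY replicate 5 and 5.99 TPM in DMSO replicate 8). Of the pathway genes, Foxh1 was low in LY replicate 8 at 10.04 TPM, where the next library had 28.11 TPM, and Fstl3 was high in LY+FGF4 replicate 5 at 20.55 TPM, next to 2.06 TPM. LY replicate 5 stood apart for both Smad2 and Lefty1. The cause was not tested.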

How the results depend on the processing

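The 2 Gdf3 calls were kept in every alternative run. The number of members called in FGF4 against DMSO was 0, and it was 1 after quantile normalization or without the libraries under 9000 genes and 2 with library weights or with the compared groups alone (0 to 1 with single libraries left out). For LY+FGF4 against FGF4 it was 0, and 1 with the trophectoderm covariate or without the libraries under 9000 genes (0 to 1). For LY+FGF4 against LY it was 2, and 1 with a pseudocount of 0.1, no filter, quantile normalization, library weights, either covariate, the compared groups alone, without the libraries under 9000 genes or with the block (1 to 2). For LY+FGF4 against DMSO it was 2, and 1 with the number of genes as a covariate. For the interaction it was 0, and 1 without the libraries under 9000 genes. Calls over all genes changed with the setting too, and they are given here only for the block, further below. A change in the number of members called is therefore a description only.

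Pathway genes called in FGF4 against DMSO numbered 3, and 0 with a pseudocount of 0.1, either covariate or the block, 7 with library weights and 5 without the libraries under 9000 genes (0 to 3 with single libraries left out). In LY against DMSO they numbered 0, and 2 with library weights. In LY+FGF4 against FGF4 they numbered 1, and 2 with a filter of 5 TPM or quantile normalization and 0 with the compared groups alone (1 to 2). In LY+FGF4 against LY they numbered 3, and 0 with the number of genes (3 to 5). In LY+FGF4 against DMSO they numbered 2, and 0 with the number of genes, 1 with the compared groups alone or the block and 4 without the libraries under 9000 genes (2 to 4). In the interaction they numbered 0, and 1 without the libraries under 9000 genes. As for the members, the share of all tested genes called is not given for these settings. The changes in number are not read as results about the pathway genes.

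Log2 fold changes that changed sign were not called under either setting. For Acvr2b in LY against DMSO they were 0.0115 (quantile), 0.63 (number of genes), 0.093 (trophectoderm) and 0.18 (block). For Acvr1b in LY+FGF4 against LY they were 0.30 (quantile), 0.083 (weights) and 0.38 (number of genes). Smad2 had -0.064 (weights) and -0.12 (trophectoderm) in LY against DMSO, and with the number of genes 0.15 in LY+FGF4 against LY and 0.45 against DMSO. The interaction of Tdgf1 was -0.42 with a pseudocount of 0.1, and that of Smad3 -0.32 with the trophectoderm score. Without the libraries under 9000 genes, Acvr1b had 0.20 against FGF4, 1.48 against LY, 0.48 against DMSO and 1.19 in the interaction, Smad2 had 0.38, 1.01, 1.07 and 0.32, and Smad3 had -0.071 against FGF4, -0.085 against LY and -0.45 in the interaction.

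With single libraries left out, the sign changed within these ranges: Bmp4 in FGF4 against DMSO -0.054 to 1.26 and in LY against DMSO -1.05 to 0.37, Acvr2b in LY against DMSO -0.15 to 0.085, in LY+FGF4 against LY -0.20 to 0.57 and against DMSO -0.24 to 0.52, Acvr1b in LY+FGF4 against LY -0.75 to 0.13, Smad2 in LY against DMSO -0.064 to 0.26, in LY+FGF4 against LY -0.78 to 0.30 and against DMSO -0.72 to 0.35, Smad3 in LY+FGF4 against FGF4 -0.0476 to 1.12, against LY -0.13 to 1.04 and in the interaction -0.43 to 0.74, and Tdgf1 in the interaction -0.43 to 0.83. The cause of these changes was not tested.

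The replicate numbers did not pair the libraries: the residuals of 31 same-numbered pairs had a median r of -0.00406, and 0 pairs were over 0.1. With the replicate block, Tdgf1 in LY+FGF4 against LY was -2.99 (limma adjusted p = 0.0508), its interaction -0.37, and Bmp4 1.53 in LY against DMSO and -0.60 in the interaction. The block gave 41, 5, 224, 545, 460 and 2 calls over all genes for FGF4 against DMSO, LY against DMSO, LY+FGF4 against FGF4, LY and DMSO, and the interaction. Of the 3 genes most like each member, 1 was shared for Tdgf1, Acvr1b and Smad3 with a pseudocount of 0.1, and 0, 1 and 0 after quantile normalization. Without the libraries under 9000 genes 0 were shared for all 7. Smad3 did not pass the 5 TPM filter and has no value there.

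TPM holds no read number, so the sampling error of values near 0 is unknown, and the libraries with the fewest listed genes were in LY+FGF4. Leaving out the 6 smallest libraries left 2 LY+FGF4 ICMs. The p-values measure the spread between embryos of 1 experiment.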

Other observations

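Of the other pathway genes without a call, 2 receptors, a convertase and a ligand are given as values. Bmpr1a, a BMP type I receptor, was above 0 in all 26 ICMs, with 4.79 to 46.4 TPM in LY+FGF4, 3.4 to 23.8 TPM in FGF4, 7.38 to 21.9 TPM in LY and 5.41 to 25.7 TPM in DMSO. Acvr2a, the second activin type II receptor, had 1.86 to 23.1 TPM in LY+FGF4, 1.26 to 24.5 TPM in FGF4, 0.64 to 16.8 TPM in LY and 1.14 to 6.61 TPM in DMSO. Pcsk7, a proprotein convertase, had 41.4 to 84.2 TPM in LY+FGF4, 0 to 37.3 TPM in FGF4, 21.2 to 108 TPM in LY and 19.5 to 46.5 TPM in DMSO. Its LY+FGF4 and FGF4 ranges did not overlap, and it did not pass the threshold of limma. Bmp6, a ligand, had 0 to 46.5 TPM in LY+FGF4, 0.86 to 72.5 TPM in FGF4, 0 in all 7 LY ICMs and 0 to 2.11 TPM in DMSO. These genes were chosen after their values were seen.

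In both groups with LY, Bmp4 was higher in replicates 6, 7 and 8 (75.2 to 218 TPM in LY+FGF4 and 85.4 to 148 TPM in LY) than in the other replicates (0 to 37.4 TPM in LY+FGF4 and 0 in LY). Replicates 6, 7 and 8 had 14.6, 0 and 58.9 TPM in FGF4 and 9.24, 1.4 and 62.0 TPM in DMSO, where the other replicates had 2.47 to 45.3 TPM in FGF4 and 0.64 and 26.0 TPM in DMSO. The labels give the numbers no meaning beyond the replicate, the split was seen in the values, and it was not tested.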
